A study of Mus musculus with 22 samples.

Results

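The 38 genes described here are markers of neurons, of autonomic nerve cells and of neural crest cells, and their RNA was measured in mouse hearts at stage E13.5. They were listed by gene name, with no threshold on a measured value, but with earlier results of these data known. All 38 were found among the 54356 annotated genes. The hearts came from C57BL/6 embryos. Prdm16 conditional knockout (cKO) hearts were compared with littermate controls, whose genetic manipulation the labels call Mock, in 3 cKO and 3 control libraries of whole heart, 4 and 4 of left ventricle, and 4 and 4 of right ventricle. The labels name neither the Cre line nor the cells in which the gene was deleted. They also do not say that libraries of a group came from separate embryos, so p-values measure only the spread between these libraries, which may be technical.

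Neural crest cells leave the dorsal neural tube, and those of the cardiac crest enter the arterial pole of the heart, where they form outflow tract septum, smooth muscle and the parasympathetic ganglia. Sympathetic neurons also come from neural crest and send axons along the coronary vessels toward nerve growth factor, while their cell bodies stay outside the ventricles. Outside the nervous system many neuronal genes are held low by the repressor REST and its CoREST partners. Several genes of the neuronal kind are nevertheless used by other cells, cardiomyocytes among them, so that a marker's RNA does not by itself locate a neuron. In a bulk library, fewer cells of a type and less RNA per cell cannot be told apart.

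Whole heart libraries held 38590751 to 62004017 estimated reads and ventricle libraries 14508722 to 22830716, so depth went with tissue. RNA integrity numbers, a measure of RNA quality, are given only as a range of 6.1 to 10 for all libraries alike. The part of RNA quality in single libraries was not tested. Prdm16 was lower in every cKO library than in every control of its tissue, at 19 to 25.8 against 37.4 to 56.2 normalised CPM (counts scaled to the size of the library) over the 3 tissues. Cardiomyocyte markers (8 genes) summed to 15200 to 24600 TPM (transcript abundance scaled for length and library size) in all libraries. Markers of brain and spinal cord (9 genes, Pax6 and Olig2 among them) summed to at most 0.902 TPM in any library, and 0 of the 9 had enough reads to be tested in the ventricles. A library of the right ventricle controls did not resemble its group. The sum of right ventricle control 2 for 8 mesenchyme and valve markers was 1370 TPM against 603 to 658 in the remaining 3, and Isl1, a factor of cardiac progenitors, pacemaker cells and motor neurons, had 2.86 TPM against 0.0499 to 0.133. Results that rest on this library are given with and without it. Whole heart control 1 had the fewest reads of the whole hearts, 7 members were at 0 in it, and it is treated in the same way.

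The promoters of 4 members are shown because they carry letters of elements known from neuronal genes, or because the gene differed in the most comparisons. RefSeq promoters (GRCm38.p6, 250 bases before to 50 after the start site) were held for 26 of the 38 members, in 40 windows. The core letters of the element bound by REST, TCAGCACC, were looked for on both strands and occur in 542 of 32851 promoters of the table (1.65%) and in 3 of the 26 members, Scg2, Tubb3 and Kif5c. The cAMP response element, TGACGTCA, reads the same on both strands and occurs in 588 promoters (1.79%) and in 5 members, Scg2, Kif5c, Chgb, Th and Foxd3. In these members the 2 motifs did not overlap. Capitals mark matches in the stretches below, each read on the strand of the gene. Scg2 holds both, with the response element starting 68 bases before the start site and the REST letters 7 bases before it. The REST letters of Kif5c start at base 33 after the start site, outside the stretch shown. Elavl3 (chr9:22052019-22052118, minus strand), Kif5c (chr2:49619191-49619290, plus), Scg2 (chr1:79440022-79440121, minus) and Tubb3 (chr8:123411388-123411487, plus) read 5′ to 3′ as follows.
Elavl3: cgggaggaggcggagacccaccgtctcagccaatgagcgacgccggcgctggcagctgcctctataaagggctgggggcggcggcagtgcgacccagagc
Kif5c: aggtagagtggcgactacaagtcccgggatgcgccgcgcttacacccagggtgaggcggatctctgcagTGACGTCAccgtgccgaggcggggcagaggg
Scg2: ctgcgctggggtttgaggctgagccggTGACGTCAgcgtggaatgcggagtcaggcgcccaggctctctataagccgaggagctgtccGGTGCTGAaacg
Tubb3: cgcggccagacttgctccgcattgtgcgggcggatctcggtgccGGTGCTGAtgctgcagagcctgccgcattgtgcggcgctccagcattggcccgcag
A match is a description of the letters and not a bound site, and binding was not measured here.

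A member is called expressed in a group where every library had at least 10 estimated reads and the group's median was at least 1 TPM. By this rule 7 of the 38 were expressed in all 6 groups. They were Uchl1, Ncam1, Gap43, Stmn4, Cplx2, Rbfox1 and Celf4. A further 6 passed in some groups. Map2 and Tubb3 passed in both whole heart groups and the left ventricle controls, Elavl4 in both whole heart groups and the right ventricle controls, and Elavl2, Kif5c and Stmn2 in whole heart alone. The other 25 passed in no group. The number expressed was 13 in whole heart control, 13 in whole heart cKO, 9 in left ventricle control, 7 in left ventricle cKO, 8 in right ventricle control and 7 in right ventricle cKO. Without right ventricle control 2 the right ventricle controls held 7, since Elavl4 dropped out. Without whole heart control 1 the number in whole heart control stayed at 13. At the low end, 18 members had fewer than 3 reads in at least 1 library, and Foxd3 was under 3 reads in all 22.

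The summed level of the 38 genes was low, at 0.014% to 0.0311% of all TPM. Uchl1, Ncam1, Gap43 and Stmn4 made up 78.6% to 92.9% of that sum in every library. The remaining 34 members together reached 28.7 to 50 TPM in whole hearts and 13.2 to 23.2 TPM in ventricles, and the 23.2 was right ventricle control 2. The autonomic and neural crest members were low, and none of the 6 exceeded 0.553 TPM in any library. Their reads are given by library further on.

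**Figure D1:**
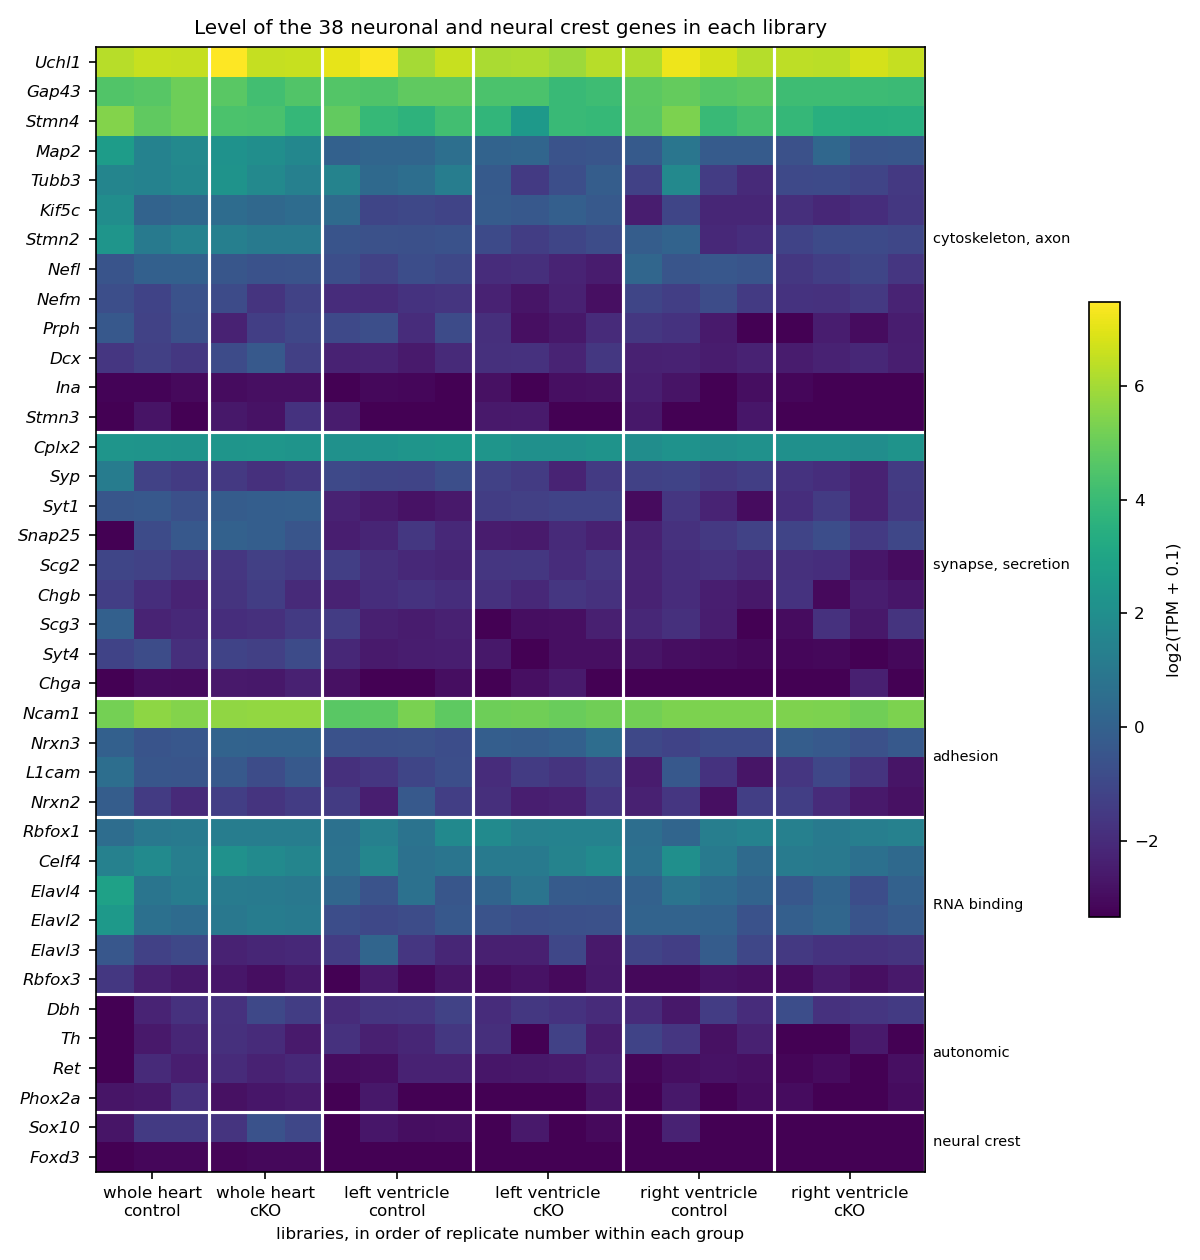
Level of the 38 members (rows, grouped by role and ordered by median level within each role) in the 22 libraries (columns, by group), as log2(TPM + 0.1), where the pseudocount of 0.1 keeps zeros on the scale. Uchl1, Ncam1, Gap43 and Stmn4 are bright in every column, while Foxd3, Chga, Stmn3 and Ina are dark, and the column of right ventricle control 2 is brighter than its neighbours for Tubb3, Stmn2, L1cam and Celf4.

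Between cKO and control, members that passed went in both directions in the ventricles, while in whole heart all that passed were lower. In whole heart 2 of 33 members tested passed an edgeR adjusted p of 0.05, beside 4.03% of all 19160 genes tested (1.96% higher, 2.07% lower), and both were lower in cKO. In the left ventricle 8 of 23 passed, 3 higher and 5 lower, beside 25.6% of 16448 genes (12.3% higher, 13.4% lower). In the right ventricle 5 of 23 passed, 1 higher and 4 lower, beside 10.3% of genes (6.12% higher, 4.19% lower). The median log2 fold change of the tested members was 0.01 in whole heart, -0.12 in the left ventricle and -0.09 in the right ventricle, against 0.01, 0.00 and -0.01 over all genes tested. The members not tested were dropped by a filter on low counts, 5 in whole heart and 15 in the ventricles. The 2 ventricles were fitted together with 4 group means and whole hearts were fitted separately, so CPM values are compared within a fit only.

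**Figure D2:**
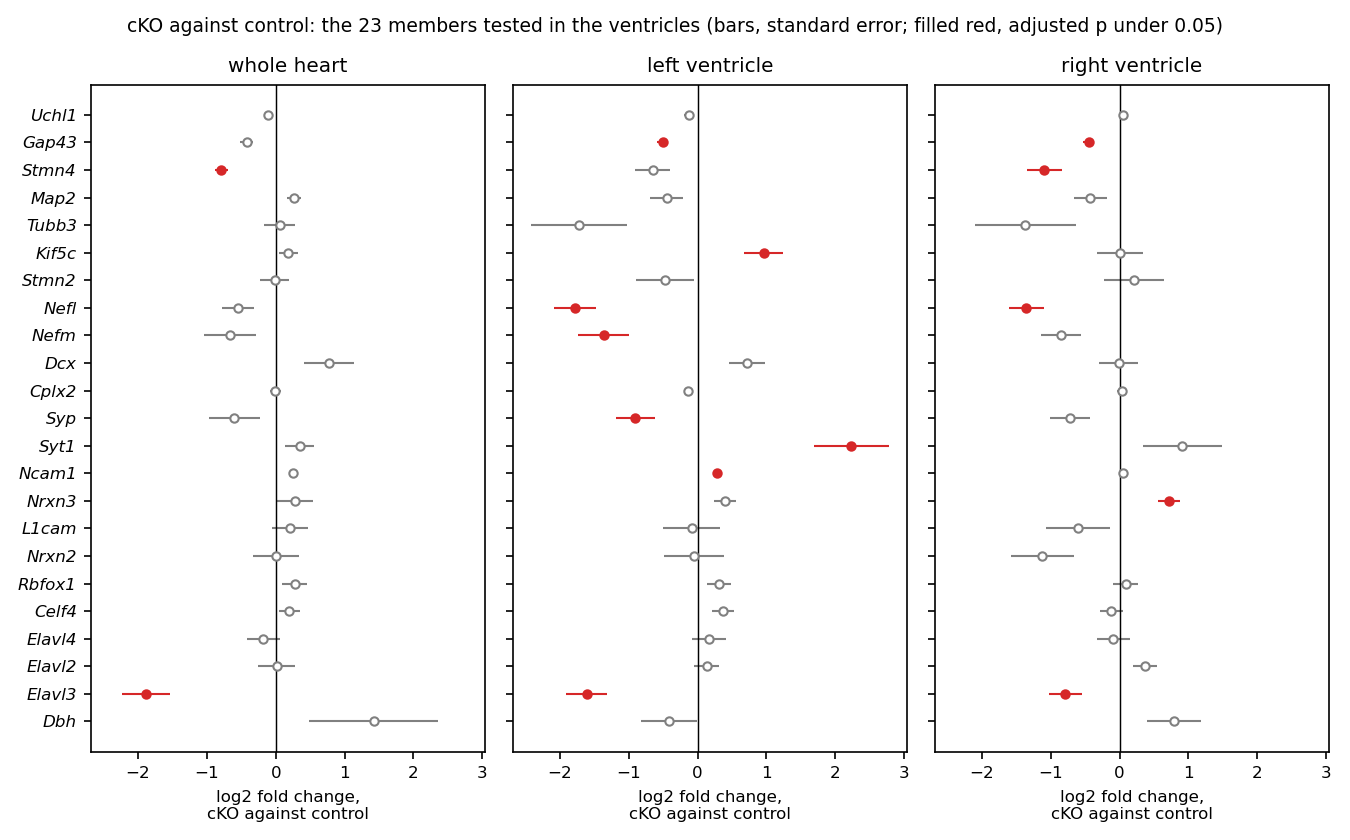
Log2 fold change of cKO against control (x axis) for the 23 members tested in the ventricles (y axis), with 1 panel per tissue, standard error bars and filled red points for an edgeR adjusted p under 0.05. Elavl3 lies left of 0 and is filled in all 3 panels, Nefl and Gap43 are filled in both ventricles, and Syt1, at 2.23 in the left ventricle, is the point farthest to the right.

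Among the cytoskeletal and axonal members, the neurofilament chains, which space the axon's cytoskeleton, gave 3 calls in the ventricles, Nefl lower in cKO in both and Nefm in the left. Nefl, the light chain, had 1.57, 1.04, 1.51 and 1.22 normalised CPM in the left ventricle controls and 0.459, 0.507, 0.341 and 0.219 in the left ventricle cKO libraries. Its right ventricle controls had 3.5, 1.89, 2.2 and 2.04 CPM against 0.768, 0.968, 1.29 and 0.731 in cKO. The groups did not overlap in either ventricle. The log2 fold change was -1.79 ± 0.30 (SE) in the left ventricle (edgeR adjusted p = 0.000331) and -1.36 ± 0.26 in the right (edgeR adjusted p = 0.00227). Whole hearts had 1.67, 2.13 and 2.23 CPM in control and 1.46, 1.32 and 1.33 in cKO, with a log2 fold change of -0.55 ± 0.23 that did not pass (edgeR adjusted p = 0.278).

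Nefm, the medium chain, had 0.547, 0.52, 0.689 and 0.744 CPM in left ventricle controls and 0.344, 0.169, 0.341 and 0.11 in left ventricle cKO, again without overlap. The log2 fold change was -1.36 ± 0.37 (edgeR adjusted p = 0.0115). In the right ventricle the controls had 1.33, 0.992, 1.68 and 0.939 CPM and the cKO libraries 0.72, 0.683, 0.942 and 0.418, which overlap narrowly, and the log2 fold change of -0.85 ± 0.29 did not pass (edgeR adjusted p = 0.0803). In whole heart Nefm had 1.65, 0.936 and 1.63 CPM in control and 1.17, 0.579 and 0.896 in cKO, which overlap, at -0.67 ± 0.38 (edgeR adjusted p = 0.432). Nefl (chr14:68083863-68089095, plus strand) and Nefm (chr14:68082590-68124846, minus strand) lie on opposite strands and share 1108 exon bases. The library kit was stranded, but the strand setting of the counting is not given in the sources used here, so reads from that stretch could be given to either gene and both values are uncertain to that extent. These are low counts as well, at 2 to 36 reads a library for Nefm in the ventricles. Nefh, the heavy chain, is not a member and was named after its values were seen. It fell in the left ventricle, at -2.11 ± 0.46 (edgeR adjusted p = 0.00245), with -0.88 ± 0.39 in the right (edgeR adjusted p = 0.185).

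Gap43, a growth cone protein of extending axons, was lower in cKO in both ventricles by a small and even amount. Left ventricle controls had 21.1, 20.9, 23.7 and 24.8 CPM and cKO libraries 17, 17.3, 15.2 and 14.2. Right ventricle controls had 22.3, 22.3, 22.4 and 22.8 CPM and cKO libraries 17.9, 15.5, 14.7 and 17.4. All 8 cKO values were under all 8 control values. The log2 fold changes were -0.51 ± 0.08 in the left (edgeR adjusted p = 0.000109) and -0.45 ± 0.08 in the right ventricle (edgeR adjusted p = 0.000871). In whole heart the controls had 16.7, 20.3 and 19.8 CPM and the cKO libraries 14.8, 14.2 and 13.4, without overlap, at -0.42 ± 0.10 (edgeR adjusted p = 0.0547). That value passed without whole heart control 1, at -0.50 ± 0.07 (edgeR adjusted p = 0.00784).

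Stmn4, a stathmin that binds tubulin dimers, had 15.9, 14.5 and 15.8 CPM in whole heart controls and 8.56, 9.56 and 8.57 in whole heart cKO. Right ventricle controls had 12.5, 21.8, 10 and 11.7 CPM and cKO libraries 8.6, 5.07, 5.89 and 6.58. Left ventricle controls had 14.9, 10.8, 9.13 and 10.3 CPM and cKO libraries 8.61, 4.28, 8.36 and 7.34. In none of the 3 tissues did the groups overlap. Stmn4 was lower in whole heart at -0.79 ± 0.09 (edgeR adjusted p = 0.00464) and in the right ventricle at -1.09 ± 0.25 (edgeR adjusted p = 0.00915). The high right ventricle control was replicate 2, and without it the right ventricle change was -0.79 ± 0.21 (edgeR adjusted p = 0.0185). In the left ventricle the change was -0.65 ± 0.25 (edgeR adjusted p = 0.0712), and it passed once right ventricle control 2 was left out of the shared fit, at -0.65 ± 0.20 (edgeR adjusted p = 0.0215). On counts rebuilt from TPM, which correct for the lengths of the isoforms present, the changes were -0.98 in whole heart (edgeR adjusted p = 0.15) and -1.07 in the right ventricle (edgeR adjusted p = 0.0781), neither of which passed.

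Kif5c, the heavy chain of a kinesin that carries cargo along axons, moved the other way and passed in the left ventricle. Left ventricle controls had 2.19, 2.46, 2.54 and 2.23 CPM and cKO libraries 4.53, 4.11, 5.46 and 4.33, which do not overlap, at 0.96 ± 0.28 (edgeR adjusted p = 0.0184). Right ventricle controls had 0.555, 2.33, 0.841 and 0.83 CPM and cKO libraries 1.1, 0.854, 1.12 and 1.51, with a log2 fold change of 0.00 ± 0.33 (edgeR adjusted p = 0.998). The 2.33 was replicate 2, and without it the right ventricle change was 0.62 ± 0.23 (edgeR adjusted p = 0.0952). The difference between the ventricles' cKO effects, 0.96 ± 0.44, did not pass (edgeR adjusted p = 0.346), and without that library it was 0.34. Whole heart values were 6.11, 4.82 and 5.45 CPM in control and 6.42, 5.65 and 6.51 in cKO, which overlap, at 0.18 ± 0.14 (edgeR adjusted p = 0.573). On length-scaled counts the left ventricle change was 0.30 and did not pass (edgeR adjusted p = 0.703). Left ventricle control 1 had 1.24 TPM against 0.357 to 0.404 in the other 3 controls, and its CPM was the lowest of the 4.

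The remaining cytoskeletal members did not pass in any of the 3 tissues. Tubb3, the neuronal beta tubulin, had 4.51, 1.51, 2.37 and 3.88 CPM in left ventricle controls and 1.15, 0.394, 0.853 and 1.26 in cKO, which do not overlap, yet its log2 fold change of -1.72 ± 0.70 missed the threshold (edgeR adjusted p = 0.081). Its right ventricle controls had 0.611, 5.65, 0.514 and 0.276 CPM, where the 5.65 was replicate 2. Without that library the right ventricle change of Tubb3 went from -1.37 to 0.54, neither of which passed, and the left ventricle change passed at -1.72 ± 0.36 (edgeR adjusted p = 0.00144). Stmn2, a stathmin of growth cones, had 0.333, 1.54, 0.234 and 0.332 CPM in right ventricle controls and 0.72, 0.74, 0.765 and 0.627 in cKO, at 0.21 ± 0.44 (edgeR adjusted p = 0.831). Without replicate 2 that difference became 1.24 ± 0.27 and passed (edgeR adjusted p = 0.00997). Uchl1, a neuronal ubiquitin hydrolase and the member with the highest median level (92.3 TPM over the 22 libraries), ranged from 59.7 to 177 TPM and did not pass in any tissue. Its normalised CPM varied less, from 53.9 to 70.6 in the left ventricles and 62.3 to 73.2 in the whole hearts. Map2, which binds dendritic microtubules, and Dcx, doublecortin of migrating neurons, had log2 fold changes of -0.45 and 0.72 in the left ventricle and did not pass. Between cKO and control Prph was tested in whole heart alone, and Ina and Stmn3 were tested nowhere, with at most 9 reads in any library.

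**Figure D3:**
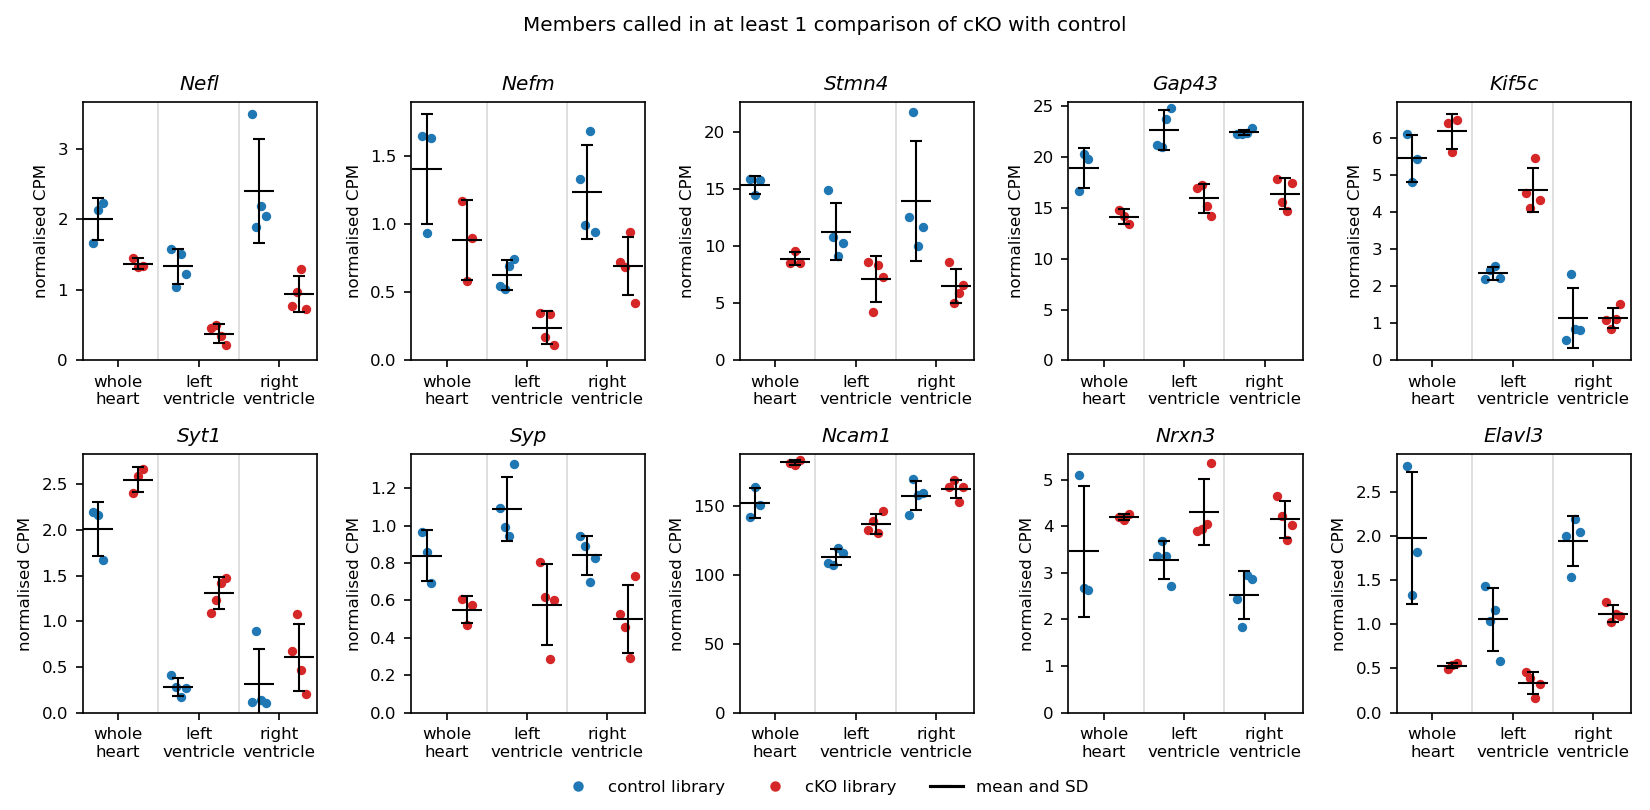
Normalised CPM (y axis, from 0) in each library for the 10 members that passed in at least 1 comparison of cKO (red) with control (blue), with the mean and SD in black (bars are cut at 0). Gap43 and Nefl are lower in every cKO library of both ventricles, Syt1 and Kif5c are higher in the left ventricle cKO libraries, and single high controls stand out for Stmn4, Kif5c and Syt1 in the right ventricle. Whole hearts and ventricles were normalised separately.

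Among the synaptic and secretory members, Syt1, the calcium sensor of synaptic vesicle release, had the largest rise. Left ventricle controls had 0.41, 0.284, 0.172 and 0.266 CPM and cKO libraries 1.09, 1.24, 1.42 and 1.48, which do not overlap. The log2 fold change was 2.23 ± 0.55 (edgeR adjusted p = 0.00588), on 4 to 6 reads a library in control and 19 to 27 in cKO. Right ventricle controls had 0.111, 0.893, 0.14 and 0.111 CPM and cKO libraries 0.672, 1.08, 0.471 and 0.209, which overlap through control 2, at 0.91 ± 0.57 (edgeR adjusted p = 0.373). Without right ventricle control 2 the change was 2.26 ± 0.52 and passed (edgeR adjusted p = 0.00719). Whole heart values were 2.19, 2.17 and 1.67 CPM in control and 2.4, 2.59 and 2.67 in cKO, at 0.35 ± 0.21 (edgeR adjusted p = 0.448).

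Syp, synaptophysin of the vesicle membrane, had 1.09, 0.993, 0.947 and 1.33 CPM in left ventricle controls and 0.803, 0.619, 0.284 and 0.602 in cKO, without overlap. It was lower at -0.90 ± 0.28 (edgeR adjusted p = 0.0261). This call was lost in 5 of the 16 fits that left out 1 library, where the largest edgeR adjusted p was 0.0833, and with DESeq2 (adjusted p = 0.0515). The other tissues gave -0.60 ± 0.37 in whole heart (edgeR adjusted p = 0.466) and -0.72 ± 0.29 in the right ventricle (edgeR adjusted p = 0.145). Cplx2, a complexin that clamps the fusion machinery, had 4.54 to 5.02 TPM in whole hearts, 4.17 to 5.18 TPM in left ventricles and 3.77 to 4.5 TPM in right ventricles, and its log2 fold changes were 0.00, -0.14 and 0.03. None of the 3 passed. Snap25, Syt4, Scg2, Scg3 and Chgb were tested in whole heart and not in the ventricles, and none of the 5 passed. Chga, the granin of chromaffin granules, had under 3 reads in 18 of the 22 libraries.

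Among the adhesion members, Ncam1, which binds neighbouring cells and is also made by embryonic heart muscle, was the most abundant, at 26 to 53.1 TPM. In the left ventricle the controls had 108, 107, 119 and 116 CPM and the cKO libraries 132, 139, 130 and 146, without overlap, and the rise of 0.28 ± 0.05 passed (edgeR adjusted p = 0.000798). Whole heart controls had 142, 164 and 150 CPM and cKO libraries 181, 180 and 183, also without overlap, at 0.26 ± 0.06 (edgeR adjusted p = 0.055). In the right ventricle the controls had 143, 169, 158 and 159 CPM and the cKO libraries 164, 169, 153 and 164, which overlap, at 0.04 ± 0.05 (edgeR adjusted p = 0.7). The left minus right difference of 0.24 ± 0.07 did not pass (edgeR adjusted p = 0.132) but did with DESeq2 (adjusted p = 0.0452). The left ventricle rise was 0.12 on length-scaled counts (edgeR adjusted p = 0.503).

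Nrxn3, a presynaptic neurexin, was higher in cKO right ventricles. Controls had 2.44, 1.83, 2.94 and 2.87 CPM there and cKO libraries 4.66, 4.21, 3.71 and 4.02, without overlap, at 0.72 ± 0.16 (edgeR adjusted p = 0.00766). Without control 2 the value was 0.59 ± 0.15 (edgeR adjusted p = 0.0151). In the left ventricle the controls had 3.35, 3.69, 3.36 and 2.71 CPM and the cKO libraries 3.9, 3.94, 4.04 and 5.37, also without overlap, at 0.40 ± 0.16 (edgeR adjusted p = 0.0776). Whole heart controls had 5.09, 2.67 and 2.64 CPM and cKO libraries 4.19, 4.13 and 4.26, where control 1 lies above and the other two below all cKO values. Without whole heart control 1 Nrxn3 passed in whole heart at 0.66 ± 0.13 (edgeR adjusted p = 0.0236), against 0.28 ± 0.27 with it (edgeR adjusted p = 0.653). L1cam and Nrxn2, the other adhesion members, did not pass in any tissue.

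Among the RNA-binding members, Elavl3, a Hu protein that stabilises neuronal mRNAs, was the only member lower in all 3 tissues by this test. Whole heart controls had 2.79, 1.33 and 1.82 CPM and cKO libraries 0.496, 0.543 and 0.558. For left ventricles, controls had 1.44, 1.04, 1.16 and 0.585 CPM and the cKO libraries 0.459, 0.394, 0.171 and 0.329. In the right ventricle the controls had 2, 1.54, 2.2 and 2.04 CPM and the cKO libraries 1.25, 1.02, 1.12 and 1.1. The groups did not overlap in any tissue. The log2 fold changes were -1.89 ± 0.35 in whole heart (edgeR adjusted p = 0.029), -1.61 ± 0.30 in the left ventricle (edgeR adjusted p = 0.000706) and -0.79 ± 0.24 in the right ventricle (edgeR adjusted p = 0.0472).

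The firmness of the Elavl3 calls differed between tissues. In the left ventricle the call was kept in all 16 fits that left out 1 library, with values from -1.81 to -1.40. In whole heart it was lost in 4 of 6 such fits, with edgeR adjusted p up to 0.154, and in the right ventricle in 11 of 16, with edgeR adjusted p up to 0.125. The signs were kept in all of them. On length-scaled counts the changes were -1.98, -1.42 and -1.09, and none passed, with edgeR adjusted p of 0.0938, 0.163 and 0.392. Its TPM overlapped between the groups in the left ventricle, where cKO replicate 3 had 0.388 TPM against 0.0676 to 0.0943 in the other 3 and the controls spanned 0.125 to 1.04. It shares 256 exon bases with Gm49318 on the same strand, which had 0 TPM in every library. Syp, Ncam1, Nrxn3 and Uchl1 share 295 to 875 with a gene on the opposite strand, and these 4 carry the limit given for Nefl. The highest TPM of those opposite genes was 0.719 for Syp, 0.414 for Ncam1, 0.037 for Nrxn3 and 0.212 for Uchl1. L1cam shares 100 exon bases with Arhgap4 on the same strand, which had 0.74 to 4.3 TPM. Elavl3 had 3 to 107 reads a library (chr9:22015005-22052023, minus strand).

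The other RNA-binding members did not pass. Rbfox1, a splicing factor of neurons and striated muscle, had the highest median over the 22 libraries among the 6 RNA-binding members, while Celf4 had the higher median in both whole heart groups, at 2.54 against 1.9 TPM in control and 3.46 against 2.27 TPM in cKO. Rbfox1 had 1.36, 1.9 and 2.05 TPM in whole heart controls and 2.26, 2.27 and 2.27 in whole heart cKO. It had 1.55, 2.53, 1.62 and 3.33 TPM in left ventricle controls and 3.52, 2.59, 2.63 and 2.67 in cKO. It had 1.4, 1.06, 2.33 and 2.69 TPM in right ventricle controls and 2.51, 2.08, 2.35 and 2.56 in cKO. The whole heart groups do not overlap on this scale and the ventricle groups do, and the edgeR log2 fold changes were 0.27, 0.31 and 0.09. Celf4 was higher in every left ventricle cKO library, at 5.74 ± 0.0495 CPM (SD, n = 4) against 4.47 ± 0.364 in control (SD, n = 4), and its 0.36 ± 0.16 did not pass (edgeR adjusted p = 0.106). Elavl2 and Elavl4, the close relatives of Elavl3, had log2 fold changes between -0.18 and 0.36 in the 3 tissues. Rbfox3, which encodes the nuclear neuron marker NeuN, had at most 0.24 TPM in any library and was tested in whole heart alone.

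Among the autonomic members, Dbh, which turns dopamine into noradrenaline, was the only one with enough reads to be tested in the ventricles. Its estimated reads were 0, 14 and 25 in whole heart controls and 27, 53 and 39 in whole heart cKO. For left ventricles, controls had 5, 11, 12 and 15 reads and the cKO libraries 6, 9, 8 and 6. In the right ventricle the controls had 7, 3, 15 and 7 reads and the cKO libraries 24, 8, 10 and 12. The log2 fold changes of 1.42 ± 0.94, -0.42 ± 0.41 and 0.79 ± 0.39 did not pass, with edgeR adjusted p of 0.498, 0.506 and 0.237. Th, tyrosine hydroxylase of the preceding steps of catecholamine synthesis, had 0, 5 and 10 reads in whole heart controls and 16, 12 and 6 in whole heart cKO. In the ventricles Th had 1 to 2 reads in left controls, 0 to 4 in left cKO, 1 to 7 in right controls and 0 to 1 in right cKO. Ret, the signalling receptor of the GDNF family, had 0, 30 and 20 reads in whole heart controls and 37, 25 and 36 in cKO, and at most 11 in any ventricle library. Phox2a, a determinant of noradrenergic identity, had 3 to 7 reads in whole hearts and at most 2 in any ventricle library. In whole heart control 1, Th, Dbh and Ret were all at 0 reads, while Phox2a had 5.

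Among the neural crest members, Sox10, which marks migrating crest and the glia that come from it, had 7, 36 and 41 reads in whole heart controls and 35, 83 and 63 in whole heart cKO. These overlap, and the log2 fold change of 0.90 ± 0.59 did not pass (edgeR adjusted p = 0.498). In the ventricles Sox10 had 0, 1, 2 and 2 reads in left controls and 0, 3, 0 and 1 in left cKO. Right controls had 0, 6, 0 and 0 reads, the 6 in replicate 2, and all 4 right cKO libraries had 0. A count of 0 allows up to 3 reads. Foxd3, an early crest factor, had 0 to 2 reads in whole hearts and 0 in all 16 ventricle libraries. Sox10 and Foxd3 were thus under 3 reads in every ventricle library except right ventricle control 2 and left ventricle cKO 2. The 3 Sox10 reads of left ventricle cKO 2 cannot be told apart from the 2 reads seen in left controls. This covers Sox10 and Foxd3 only. The 12 further neural crest genes described below summed to 43.7 to 94.5 TPM in the ventricles.

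Genes that act on nerves were looked at beside the nerve genes. Of 14 neurotrophic and axon guidance factors and receptors, 3 of 14 tested were higher in cKO in whole heart, 7 of 12 in the left ventricle and 4 of 12 in the right, and every gene of the list that passed was higher. The median log2 fold changes of the list were 0.31, 0.75 and 0.28. Of all genes tested, 1.96%, 12.3% and 6.12% passed and were higher in these tissues. This list and the other lists were chosen with earlier results of these data known. Their counts beside the shares of all genes are descriptions and not tests. Gdnf, the glial cell line-derived neurotrophic factor, had 1.07, 0.897 and 0.749 CPM in whole heart controls and 2.16, 3.2 and 3.31 in cKO. For left ventricles, controls had 0.958, 0.756, 0.818 and 0.638 CPM and the cKO libraries 7.17, 7.77, 8.25 and 7.39. In the right ventricle the controls had 0.444, 0.496, 0.608 and 0.83 CPM and the cKO libraries 2.54, 1.54, 1.12 and 1.41. The groups did not overlap in any tissue, and the log2 fold changes were 1.68 ± 0.27 (edgeR adjusted p = 0.0166), 3.27 ± 0.23 (edgeR adjusted p = 3.01e-08) and 1.48 ± 0.25 (edgeR adjusted p = 0.000887). The left ventricle effect exceeded the right by 1.79 ± 0.35 (edgeR adjusted p = 0.0152).

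Gfra2, a co-receptor of the GDNF family that acts with Ret, rose from 2.69 ± 0.241 to 12.4 ± 2.04 CPM in whole heart (SD, n = 3 and 3), from 1.09 ± 0.761 to 11.6 ± 1.26 in the left ventricle and from 1.12 ± 0.621 to 8.81 ± 3.07 in the right (SD, n = 4 and 4). The log2 fold changes were 2.20 ± 0.16 (edgeR adjusted p = 0.000881), 3.40 ± 0.36 (edgeR adjusted p = 3.08e-06) and 2.96 ± 0.36 (edgeR adjusted p = 3.59e-05). Ret itself stayed at or under 11 reads in the ventricles, as above. Ntf3, neurotrophin 3, rose by 0.90 ± 0.15 in the left (edgeR adjusted p = 0.000249) and 1.04 ± 0.15 in the right ventricle (edgeR adjusted p = 0.000271), with 0.43 ± 0.15 in whole heart (edgeR adjusted p = 0.184). Slit3, a guidance ligand, rose by 1.04 ± 0.07 in the left (edgeR adjusted p = 4.31e-08) and 0.48 ± 0.08 in the right ventricle (edgeR adjusted p = 0.000632), and the difference of 0.56 ± 0.11 passed (edgeR adjusted p = 0.0138). Nrg1, the neuregulin made by endocardium and axons, rose by 0.43 ± 0.09 in whole heart (edgeR adjusted p = 0.0393).

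**Figure D4:**
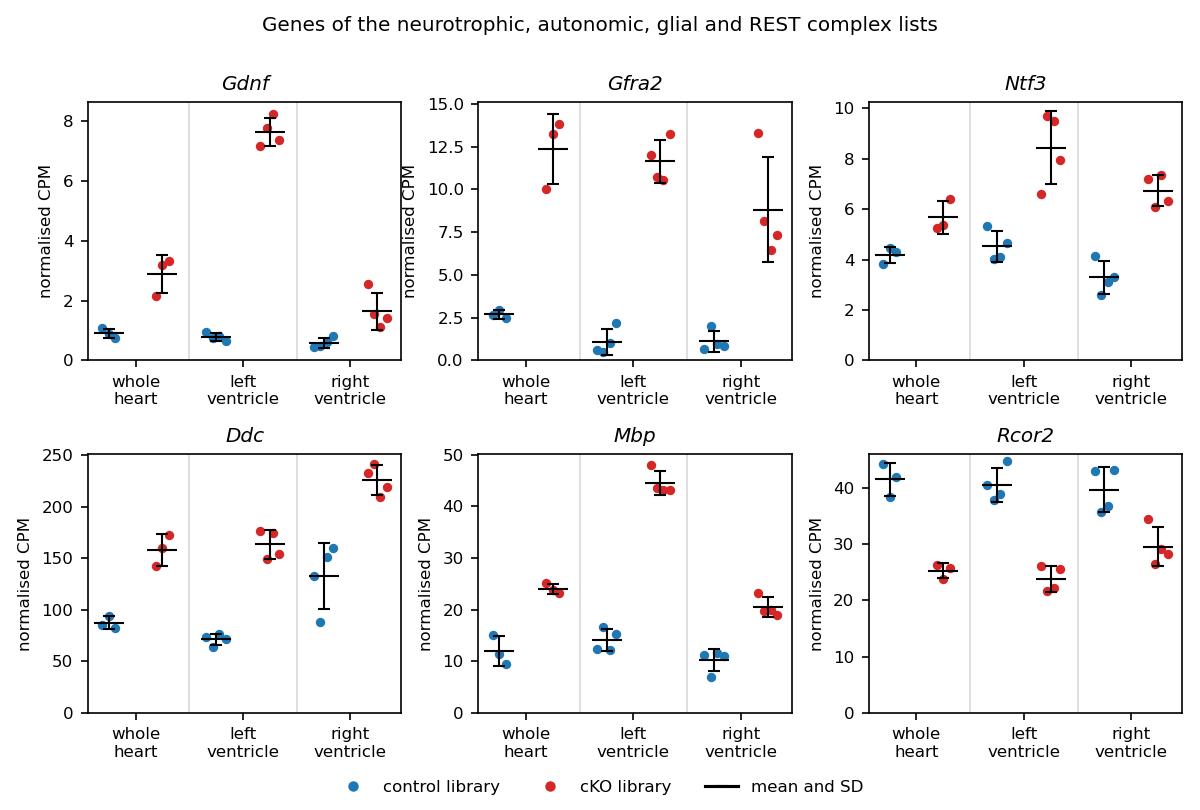
Normalised CPM (y axis, from 0) of Gdnf, Gfra2, Ntf3, Ddc, Mbp and Rcor2 in each library, control in blue and cKO in red, with mean and SD in black. The cKO values of Gdnf, Gfra2, Ddc and Mbp lie above all control values of their tissue and those of Rcor2 below, and Gdnf is highest in the left ventricle cKO libraries at 7.17 to 8.25 CPM. Whole hearts and ventricles were normalised separately.

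Of 20 further autonomic genes, 1 of 13 tested was higher in cKO whole heart, 2 of 7 in the left and 1 of 7 in the right ventricle, and those were the ones that passed. The shares of all genes tested that passed and were higher were 1.96%, 12.3% and 6.12%, and 2.07%, 13.4% and 4.19% were lower. The autonomic gene called in all 3 tissues was Ddc, which makes dopamine and serotonin. It had 85.3, 94.3 and 82.4 CPM in whole heart controls and 142, 160 and 172 in cKO, at 0.86 ± 0.08 (edgeR adjusted p = 0.00252). It rose by 1.2 ± 0.13 in the left ventricle (edgeR adjusted p = 4.27e-06) and 0.77 ± 0.13 in the right (edgeR adjusted p = 0.00073). Th and Dbh, the enzymes before and after it in catecholamine synthesis, had the low reads given above. Ngfr, the low-affinity neurotrophin receptor, rose in the left ventricle by 1.05 ± 0.25 (edgeR adjusted p = 0.0047).

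Of 14 Schwann cell and glial genes, 1 of 10, 2 of 7 and 1 of 7 tested were higher in cKO in whole heart, left and right ventricle, and no other passed. Among all genes tested, 1.96%, 12.3% and 6.12% passed and were higher. The median log2 fold changes of the glial list were 0.11, 0.03 and -0.01. Mbp, myelin basic protein, was called in all 3 tissues, at 1.01 ± 0.16 (edgeR adjusted p = 0.0138), 1.66 ± 0.12 (edgeR adjusted p = 6.53e-08) and 1.01 ± 0.13 (edgeR adjusted p = 6.82e-05). In CPM it went from 9.44 to 15.1 in control to 23.3 to 25.1 in cKO whole hearts, and from 12.1 to 16.6 to 43.1 to 48 in left ventricles. Mal, a myelin and epithelial membrane protein, rose in the left ventricle by 0.45 ± 0.15 (edgeR adjusted p = 0.0354). Of 12 further neural crest genes, 0 passed by edgeR or DESeq2 in any of the 3 tissues, out of 12, 8 and 8 tested. An unadjusted edgeR p under 0.05 was found for 1, 0 and 2 of them. With all libraries, the median log2 fold changes of this crest list were 0.31, -0.09 and -0.54.

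Of 26 further neuronal genes, 1 of 26 tested passed in whole heart and was higher, 9 of 21 passed in the left ventricle (5 higher, 4 lower) and 5 of 21 in the right, all 5 higher. Over all genes tested, 4.03% passed in whole heart, 25.6% in the left ventricle and 10.3% in the right. Tagln3, a neuronal calponin family protein, was higher in all 3 tissues, at 1.36 ± 0.22 (edgeR adjusted p = 0.0165), 1.27 ± 0.23 (edgeR adjusted p = 0.00065) and 1.38 ± 0.23 (edgeR adjusted p = 0.00073). Vamp2, which serves vesicle fusion, rose by 0.21 in the left ventricle and 0.16 in the right, and Dpysl3, of growth cones, changed by -0.22 in the left. Of 10 REST complex genes, Rcor2, which encodes CoREST2, was lower in all 3 tissues, at -0.72 ± 0.07 (edgeR adjusted p = 0.00278), -0.76 ± 0.09 (edgeR adjusted p = 1.07e-05) and -0.42 ± 0.09 (edgeR adjusted p = 0.00494). Rest itself did not pass in any of the 3 tissues. The other 2 genes of that list called in the left ventricle, Ctdsp1 and Hdac1, moved by -0.16 and 0.12.

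The 2 ventricles differed from each other in several members. The test of whether the cKO effect differed between them called 0 of 23 members, beside 1.43% of all genes (0.462% higher, 0.973% lower), while 5 of the 23 had an unadjusted p under 0.05 and DESeq2 called 1, Ncam1, beside 2.83% of genes. Without right ventricle control 2 edgeR called 1 member, Stmn2, at -1.72 ± 0.35 (edgeR adjusted p = 0.0178), beside 2.15% of genes. In controls 6 of 23 members differed between left and right, beside 21% of genes (9.02% higher, 12% lower), with Kif5c higher on the left and Nefl, Nefm, Uchl1, Ncam1 and Elavl3 lower. In cKO the same 6 members differed in the same directions and Dcx, Rbfox1 and Celf4 were higher on the left, which made 9 of 23, beside 32.8% of genes (14.5% higher, 18.3% lower). Without right ventricle control 2 it was 11 of 23, beside 36.1%.

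Kif5c was higher on the left by 1.04 ± 0.31 in control (edgeR adjusted p = 0.0251) and 2.0 ± 0.30 in cKO (edgeR adjusted p = 0.000102). Leaving out right ventricle control 2, the control value was 1.66. Elavl3 was lower on the left by -0.89 ± 0.24 in control (edgeR adjusted p = 0.0151) and -1.71 ± 0.30 in cKO (edgeR adjusted p = 0.000338). On length-scaled counts the Elavl3 values were -0.18 and -0.50, and neither passed (edgeR adjusted p = 0.897 and 0.661). Ncam1 was lower on the left by -0.48 ± 0.05 in control (edgeR adjusted p = 1.11e-05) and -0.24 ± 0.05 in cKO (edgeR adjusted p = 0.00207). Uchl1 was lower on the left by -0.31 ± 0.07 in control (edgeR adjusted p = 0.0053), a direction that turned on the TPM scale, where the difference was 0.15. With 1 library left out, the control calls were lost in 5 of 16 fits for Kif5c, 4 of 16 for Nefm and 3 of 16 for Nefl. In cKO the calls of Dcx, Rbfox1, Celf4 and Uchl1 were lost on length-scaled counts, where the value of Rbfox1 was 0.14. Leaving out right ventricle control 2, the number called in controls was 9 of 23, beside 26.9% of genes, and the 3 added were Stmn2, L1cam and Tubb3, all higher on the left. The value for Tubb3 moved from 0.76 ± 0.64 to 2.67 ± 0.43 (edgeR adjusted p = 0.000236).

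Several members were higher in control whole hearts, which hold atria and outflow tract as well as ventricles, than in isolated control ventricles. By edgeR 13 of 30 members tested passed, 12 higher in whole heart and 1 lower, beside 43.6% of all 17560 genes tested (22.3% higher, 21.3% lower). The median log2 fold change of the 30 was 0.55 against 0.00 over all genes. Sox10, Syt4, Prph and Snap25 had too few reads to be tested in the ventricle fit. They passed the count filter here through the whole heart libraries, so their higher values are not independent of that filter. The median of the 30 includes them. Sequencing depth and the collection of samples went with tissue, so tissue, depth and collection cannot be told apart. Sox10 was higher by 2.83 ± 0.73 (edgeR adjusted p = 0.0044), on 7 to 41 reads in whole heart controls against 0 to 6 in ventricle controls. Syt1 was higher by 2.66 ± 0.39 (edgeR adjusted p = 1.74e-05), Syt4, a relative of it on dense-core vesicles, by 1.86 ± 0.39 (edgeR adjusted p = 0.000715) and Stmn2 by 1.79 ± 0.30 (edgeR adjusted p = 7.36e-05). Kif5c, Prph, L1cam, Elavl2, Map2, Elavl4, Dcx and Celf4 were higher by 0.54 to 1.63. Of these, Celf4 and Prph did not pass on length-scaled counts, at 0.07 and 0.84 (edgeR adjusted p = 0.859 and 0.226), and Dcx did not with DESeq2 (adjusted p = 0.0529) or in 4 of the 22 fits with 1 library left out. Gap43 was lower, at -0.34 ± 0.07 (edgeR adjusted p = 0.000864), which turned to 0.05 on the log2(TPM + 1) scale, where the median of all genes was 0.24.

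**Figure D5:**
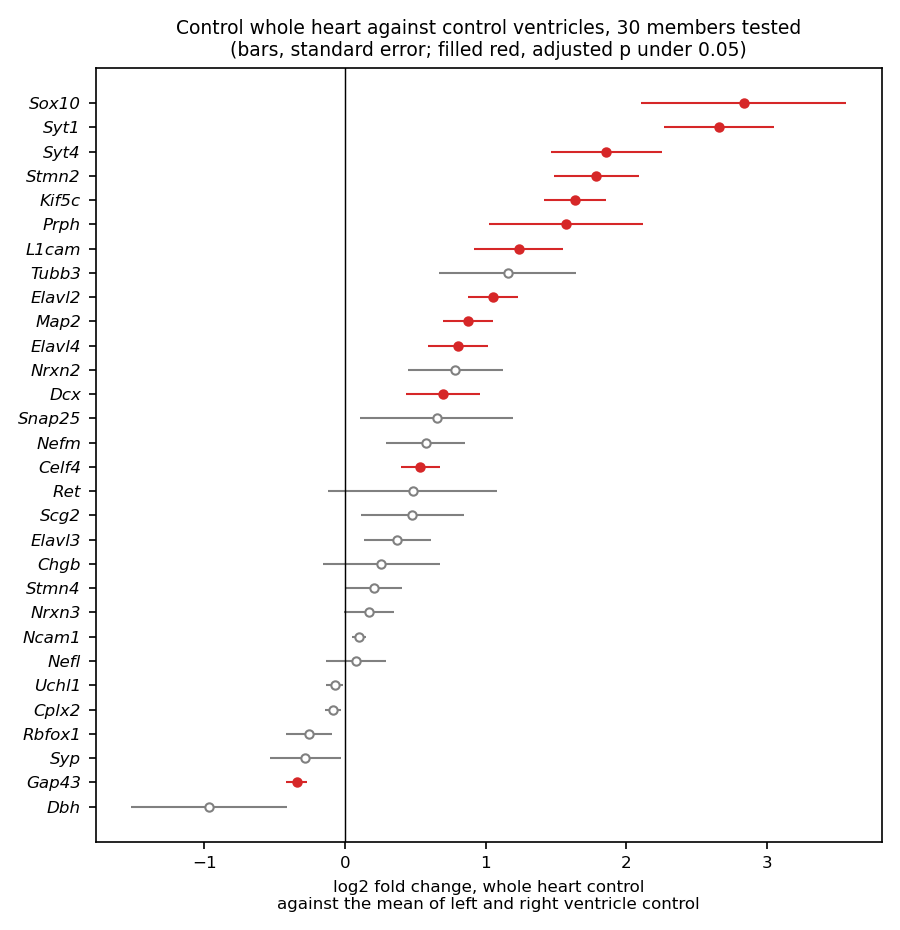
Log2 fold change of control whole hearts against the mean of left and right control ventricles (x axis) for the 30 members tested (y axis, in order of the value), with standard error bars and filled red points for an edgeR adjusted p under 0.05. The 12 red points right of 0 run from Celf4 at 0.54 to Sox10 at 2.83, and Gap43 is the only red point left of 0.

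The libraries that stood apart changed which members passed. Without right ventricle control 2, 15 of 30 members tested passed, 14 higher and 1 lower, beside 47% of genes, with Sox10 at 4.97 ± 0.90 (edgeR adjusted p = 0.000314) and Tubb3 at 2.11 ± 0.29 (edgeR adjusted p = 5.83e-06). Without whole heart control 1, 13 passed, beside 42.3% of genes. Prph and Elavl4 then missed the threshold, and Snap25 at 1.19 ± 0.32 (edgeR adjusted p = 0.00571) and Ncam1 at 0.15 ± 0.05 (edgeR adjusted p = 0.0368) passed. Sox10 and Snap25 carry the limit of the count filter given above. Without both libraries 16 passed, 15 higher and 1 lower, beside 47.1% of genes. Whole heart control 1 also gave high TPM for several members whose CPM was ordinary. Kif5c had 3.83 TPM there against 0.97 and 1.1 in the other 2 controls, and 6.11 CPM against 4.82 and 5.45.

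Of the 26 further neuronal genes 23 were tested in this contrast. Of these, 1 was higher in whole heart and 7 were lower, with a median log2 fold change of -0.17. The shares over all genes tested were 22.3% higher and 21.3% lower. Tubb2b, a tubulin of newborn neurons, was lower at -0.42 ± 0.06 (edgeR adjusted p = 5.63e-06) and Sv2a, a synaptic vesicle protein, at -0.37 ± 0.06 (edgeR adjusted p = 6.54e-05).

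Lists of other cell types differed in the same contrast, in both directions, beside 22.3% of all genes tested that were higher and 21.3% lower. Schwann cell and glial genes had 3 higher and 2 lower of 9 tested. Of 9 further neural crest genes tested, 5 were higher in whole heart, Sox9, Msx1, Crabp1, Snai2 and Twist1. The mesenchyme and valve markers were higher in 6 of 8, with sums of 1750 to 1800 TPM in whole heart controls against 665 to 1040 in left and 603 to 658 in right ventricle controls other than replicate 2. Conduction markers were higher in 6 of 8. Cardiomyocyte markers had 2 higher and 5 lower of 8, and endothelial and endocardial markers 1 higher and 5 lower of 8. Isl1, which marks pacemaker cells, outflow tract and autonomic neurons, had 2.81, 2.95 and 3.63 TPM in whole heart controls and at most 0.139 TPM in ventricle controls other than right ventricle control 2. Ntrk3, the neurotrophin 3 receptor, was higher by 2.40 ± 0.30 (edgeR adjusted p = 2.57e-06) and Bdnf by 2.15 ± 0.37 (edgeR adjusted p = 0.000105). The part of these cell types in the members' difference was not tested.

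Right ventricle control 2 was high for some of these genes and low for others. It had 3.24 TPM of Tubb3 against 0.146 to 0.32 in the other right ventricle controls, 1.78 TPM of Map2 against 0.732 to 0.749, 0.682 TPM of L1cam against 0.0542 to 0.199, and 4.03 TPM of Npy, the neuropeptide of sympathetic nerves, against at most 0.325. It was the lowest right ventricle control for Rbfox1 (1.06 TPM against 1.39 to 2.69), Nrxn3 (0.348 against 0.4 to 0.437) and Dbh (0.0636 against 0.148 to 0.277). The 20 further autonomic genes, Npy among them, summed to 83.6 TPM in it against 94.9 to 124. Its Postn, a matricellular protein of valves and cushions, was 266 TPM against 42 to 47.6, and Meox1, a mesenchymal factor, was 25.8 TPM against 1.45 to 1.89. Its markers of brain and spinal cord summed to 0.315 TPM. Leaving it out raised the number of members called from 8 to 12 in the left ventricle (5 higher, 7 lower), beside 29.2% of genes, and from 5 to 7 in the right (3 higher, 4 lower), beside 14.5% of genes. The 4 added in the left ventricle were Stmn4 and Tubb3, both lower, and Celf4 and Nrxn3, both higher, and the 2 added in the right were Stmn2 and Syt1, both higher. In whole heart, leaving out control 1 raised the number from 2 to 4 of the members tested (1 higher, 3 lower), beside 6.54% of genes, through Gap43 and Nrxn3.

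Marker RNA of cells other than nerve cells also differed between cKO and control. Over all genes tested, 1.96% were higher in whole heart, 12.3% in the left ventricle and 6.12% in the right. The shares lower were 2.07%, 13.4% and 4.19%. Atrial markers (8 genes) summed to 7210 to 8480 TPM in left ventricle controls and 13800 to 16000 in cKO, and 5 of the 8 were higher in cKO in each of the 3 tissues. In whole heart controls, which hold the atria, the same 8 genes summed to only 5180 to 5960 TPM. The list therefore does not mark atrial tissue in these libraries, and its rise does not show atrial cells. Endothelial and endocardial markers were higher in 6 of 8 in the left ventricle, with sums of 529 to 580 TPM in control and 661 to 731 in cKO. Cardiomyocyte markers were lower in 5 of 8 there. Conduction markers summed to 62.4 to 73.7 TPM in whole heart controls and 165 to 187 in cKO, with 4 of 8 higher. In the left ventricle they summed to 40.6 to 62.4 TPM in control and 84 to 108 in cKO, where 2 of 6 tested were higher, the calcium channel subunit Cacna2d2 and Cpne5, and 1 was lower, the pacemaker channel Hcn4. Epicardial markers were higher in 4 of 6 in the left ventricle, with sums of 128 to 140 TPM in control and 159 to 185 in cKO. The part of these lists in the members' differences was not tested.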

How the data were processed

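RNA-seq was run on 22 libraries of embryonic mouse heart. Per the submitters' processing notes, Salmon 1.2.1, DESeq2 and builds GRCm38.p6 and mm10 were used, with no roles given there. The authors deposited estimated counts and TPM per transcript for each library. Both were summed per gene with GENCODE M21. The file names carry release M22, which was not used here, and 521 of 140658 transcripts, with at most 0.204% of reads, had no gene in M21. Deposited expected counts were rounded and filtered with filterByExpr, scaled by TMM and tested by the quasi-likelihood method of edgeR 4.0.16, run under R 4.3.3. P-values were adjusted over all genes tested by Benjamini and Hochberg, with 0.05 as the threshold. The deposited TPM values gave levels between genes. Normalised CPM are counts over TMM-scaled library sizes. Whole hearts (6 libraries) and ventricles (16) were fitted separately, and all 22 together for whole heart against ventricles. Alternatives were RLE factors, no count filter, 1 CPM, DESeq2 1.42.0, limma 3.58.1 on log2(TPM + 1) and log2(TPM + 0.1), length-scaled counts, a replicate block, other sets of libraries and each library left out. The fits were tested on simulated data. Read floors cover counting error only.

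The members, gene lists and tests were chosen with earlier results of these data known. Values in every library are given for members called in a cKO comparison, for autonomic and neural crest members and for the highest member of each role, and up to 4 genes with the smallest p are named per other list. Exons shared with another annotated gene were found for 14 members. Outliers in groups of 4 were looked for by Dixon's test.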

Additional observations from a re-analysis of the deposited data

Results flagged for a closer look

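Among 67 groups of 4 libraries in which a member had at least 10 reads in each library, 5 held a library far from the others of its group by Dixon's 95% criterion, and chance flags about 1 in 20 groups. In right ventricle control 2, Map2 had 6.45 normalised CPM against 2.99 to 3.27 in the other 3, Kif5c had 2.33 against 0.555 to 0.841, and Celf4 had 5.8 against 3.55 to 3.87. In right ventricle cKO 3, Celf4 had 5.12 normalised CPM against 3.42 to 3.55. In left ventricle cKO 4, Nrxn3 had 5.37 normalised CPM against 3.9 to 4.04. The 3 values of right ventricle control 2 go with its high mesenchyme and valve markers, whose part in them was not tested.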

How the results depend on the processing

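Over 178 pairs of a member and a comparison, 4203 alternative values were computed. With 1 library left out, 48 lost a call and 26 gained one, and with other alternatives 68 lost a call, 42 gained one and 5 turned the sign of a called value. The 5 were Uchl1 between left and right control ventricles, at 0.153 with log2(TPM + 1), 0.154 with log2(TPM + 0.1) and 0.139 with length-scaled counts, and Gap43 between whole heart and ventricles, at 0.048 and 0.049 with the 2 TPM pseudocounts. The cause was not tested.

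The number of members called in whole heart (2) became 4 with no count filter, with 1 CPM and with DESeq2, and 0 with both TPM fits and with length-scaled counts. For the left ventricle (8) both TPM fits gave 5. For the right ventricle (5) they gave 2 and 3, and length-scaled counts 3. For left against right in control (6) they gave 2 and 2, and length-scaled counts 3. For left against right in cKO (9) they gave 1 and 3, and length-scaled counts 5. For the difference between the ventricles' cKO effects (0) DESeq2 gave 1. The number of all genes called moved as well. Of 19160 genes in whole heart, 773 were called in the main fit, 1728 with DESeq2 and 82 on log2(TPM + 1). On that TPM scale the calls of 16448 genes went from 4216 to 2637 in the left ventricle and 1696 to 721 in the right. For left against right they went from 3462 to 1387 in control and 5398 to 3940 in cKO. The cause was not tested.

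Leaving out each library in turn gave 1 to 4 members in whole heart, 7 to 12 in the left ventricle, 4 to 7 in the right, 0 to 1 for the difference in cKO effects, 3 to 9 and 8 to 11 for left against right in control and cKO, and 12 to 15 for whole heart against ventricles. The 1 in whole heart came without cKO 1, 2 or 3 or control 3, and the 3 for left against right in control without left ventricle control 2 or right ventricle control 1.

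Not every same-numbered pair of libraries correlated above 0.1, and replicate numbers were not taken to pair them. Differently numbered pairs were not computed as a reference, so this check cannot exclude a pairing. Left against right ventricle was tested unpaired in the main fit. Correlations of same-numbered deviations from the group means were -0.183 to 0.0162 in whole heart, 0.015 to 0.0907 in the left and -0.022 to 0.155 in the right ventricle. Between left and right ventricle they were -0.106 to 0.0916 in control and 0.0508 to 0.255 in cKO, where 3 of 4 pairs exceeded 0.1. A replicate block gave 1 member in whole heart, 6 for left against right in control and 9 in cKO.

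In the ventricles 15 members had too few reads to test, and the part of depth in this was not tested. Libraries are few, and a missed threshold does not show equal levels.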
